A study of Arabidopsis thaliana with 18 samples.

Results

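H3K27me3 was compared among clf mutants of 3 genotypes of Arabidopsis thaliana, the accessions Col and C24 and their F1 hybrid, by asking which genes carried the mark in 1, 2 or all 3 of them. A gene was called marked where peaks of a genotype's list covered at least 200 bp of its body, on chromosomes 1 to 5. By that rule 6844 of 32815 genes (20.9%) were marked in at least 1 clf genotype, 4828 of them in all 3 and 2016 in 1 or 2. Marks were set beside the mRNA level of the same genes in shoots of the same genotypes.

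Shoots of 14-day-old seedlings grown in short days (8 h light at 22 °C, 16 h dark at 18 °C) gave 1 H3K27me3 ChIP-seq library for each clf genotype and 3 mRNA libraries for each. The 6 wild-type ChIP-seq libraries, 2 each of Col, C24 and F1 without a clf mutation, served as a yardstick. The clf Col plants carry the T-DNA insertion SALK_139371 in CLF. The clf C24 plants carry a mutation induced by ethyl methanesulfonate, a G-to-A change that replaces an aspartate by an asparagine in the SET domain of CLF. The clf F1 is the cross of these 2 mutant lines and so carries 1 allele of each kind and no wild-type CLF allele. Accession and clf allele differ together between Col and C24, so their parts in any difference cannot be told apart. Nothing in the labels says that replicates came from separate cultures, so the p-values reflect the scatter of these samples alone, part or all of which may be technical.

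Trimethylation of lysine 27 of histone H3 is laid down by Polycomb repressive complex 2 and is a mark of genes kept silent. CLF (CURLY LEAF) is one of the catalytic subunits of that complex in Arabidopsis, beside SWN and MEA, and its SET domain carries the methyltransferase activity. In seedling shoots the complex is known for holding floral, embryonic and seed genes silent, and clf mutants are known for leaf curling and early expression of floral MADS-box genes.

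CLF mRNA (AT2G23380) was lowest in the insertion line. Levels were 1.21, 0.99 and 1.37 RPKM (reads per kilobase of gene, scaled to library depth) in the clf Col libraries and 7.20, 7.14 and 8.35 RPKM in clf C24. In clf F1 they were 4.35, 3.93 and 4.08 RPKM, so the 3 groups did not overlap. The RNA level checks the insertion only as far as reads lie across it, and it cannot check the point mutation. CLF itself carried no peak of at least 200 bp in any of the 9 lists.

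The clf lists were of similar size. On chromosomes 1 to 5 they held 5945 peaks in Col, 6353 in C24 and 6305 in F1, which covered 12.09, 11.8 and 12.53 Mb and held 4.09 M, 3.36 M and 3.99 M tags (M, mega). The wild-type lists ranged from 0.841 to 8.27 M tags in peaks and from 2509 to 6281 marked genes, with the second replicate of each genotype the shallower. Depth of the mRNA libraries, estimated from the steps of low values, ran from 14.9 to 24.25 M reads. As a check of the tissue, 8 shoot markers (photosynthesis genes) together reached 41353 to 55500 RPKM in each library and none was marked in a clf list. The wild-type C24 replicate 2 list, the shallowest, did mark RBCS1A (714 bp) and PSAF (666 bp) among them, and the housekeeping genes PDF2 (1371 bp) and GAPC1 (1539 bp). Of the 8 shoot markers, 6 were called lower in C24 than in Col, beside 12.7% of all tested genes. After quantile normalization 1 was called lower and 1 higher, beside 20.3% and 21.5% of all tested genes. Of 7 root markers, COBL9 was listed at 0 in all 9 libraries, and the list's sum was 95 to 107 RPKM in Col, 211 to 217 in C24 and 131 to 149 in F1. PYK10, a beta-glucosidase gene of root and hypocotyl, made up nearly all of it, and its part in the differences below was not tested.

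Most marked genes were shared by the 3 mutants. The 4828 genes marked in all 3 made up 70.5% of those marked in any, and peaks covered most of their bodies, with medians of 99.4% in Col, 95.8% in C24 and 100% in F1. Next came 555 genes marked in Col and F1 and not in C24, and 504 marked in C24 and F1 and not in Col. Marks of a single genotype were found at 313 genes in Col, 381 in C24 and 202 in F1, and 61 genes were marked in both parents and not in F1. With 1 list per genotype these counts have no replicate error and no test.

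**Figure D1:**
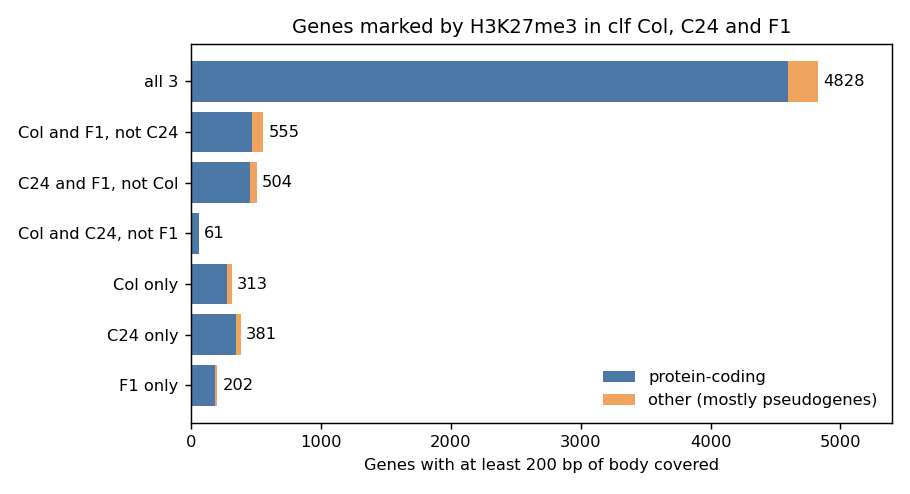
Number of genes (horizontal axis) with at least 200 bp of the gene body covered by H3K27me3 peaks in each combination of clf Col, C24 and F1 (vertical axis). Bars are split into protein-coding genes and other gene types. The bar for all 3 genotypes reaches 4828 genes, and the longest of the others 555.

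Genes that differed between the mutants mostly had no peak at all where they were called unmarked. In the unmarked genotypes 273 of the 313 Col genes, 341 of the 381 C24 genes, 502 of the 555 Col and F1 genes and 464 of the 504 C24 and F1 genes had 0 bp covered. At the threshold itself the least covered marked gene had 200 bp and the most covered unmarked gene 199 bp in each of the 3 lists. Genes with 200 to under 300 bp covered numbered 143 in Col, 145 in C24 and 169 in F1, and genes with 1 to 199 bp numbered 598, 613 and 632.

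The partly shared marks were the weaker ones. By the fold enrichment that the authors' peak caller gave, the median peak over genes marked in all 3 reached 5.4 in the Col list, 6.1 in the C24 list and 6.03 in the F1 list. Over genes marked in 1 genotype the medians were 3.68 for Col, 4.03 for C24 and 3.79 for F1. Within the F1 list, peaks over F1-only genes had a median score percentile of 11.8, against 29 over genes shared with Col, 18.3 over genes shared with C24 and 62 over genes marked in all 3. Marks in 1 genotype also covered less of the gene, with medians of 70.4% of the body in Col, 50.1% in C24 and 51.3% in F1. Folds and scores are the authors' values per peak and were compared within a list only.

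Counted by peaks instead of genes, the order was the same. In the Col list 848 of 5945 peaks (14.3%) shared no base with any C24 peak and 400 (6.73%) shared none with any F1 peak. For C24, 1098 of 6353 peaks (17.3%) shared no base with Col and 621 (9.77%) none with F1. The F1 list had 175 of 6305 peaks (2.78%) that touched no peak of either parent, against 328 (5.52%) of Col peaks and 537 (8.45%) of C24 peaks that touched neither other list. Peaks with no partner were narrower, with a median of 1009.5 bp among C24 peaks missing from Col against 1728 bp for those present.

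Neighbouring genes often shared a class. Among genes marked in all 3, 42.7% stood next to a gene of the same class, against 16.4% of Col and F1 genes, 14.7% of Col-only, 12.5% of C24 and F1, 9.19% of C24-only and 5.94% of F1-only genes. Of genes marked in both parents and not F1 it was 6.56%. These shares have no test, and classes of different size were not put on a common scale. Outside the class marked in all 3 there were 3 runs of at least 4 genes. AT1G14930 to AT1G14960 (4 genes) were marked in F1 only and AT3G17520 to AT3G17550 (4 genes) in C24 only. AT5G66970 to AT5G67000 (5 genes) were marked in Col and F1, and that run includes RKD3, an RWP-RK transcription factor gene. Pseudogenes made up 13.9% of the Col and F1 class, 10.5% of Col-only, 8.4% of C24-only, 8.13% of C24 and F1 and 7.43% of F1-only genes, and 3.28% of those marked in both parents and not F1, against 4.1% of genes marked in all 3 and 17.1% of unmarked genes.

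The hybrid kept nearly every mark that its parents shared and more than 50% of those that 1 parent had. Of 4889 genes marked in both clf parents, 4828 (98.8%) were marked in clf F1. Of 868 genes marked in Col and not C24 it was 555 (63.9%), and of 885 genes marked in C24 and not Col it was 504 (56.9%). A gene marked in neither parent was marked in F1 in 202 of 26173 cases (0.772%). Wild-type lists of replicate 1 gave 96.9% of genes marked in both parents, 44.9% of those marked in Col alone of the parents and 57.1% of those in C24 alone, and replicate 2 gave 95.1%, 57.7% and 30.2%. The order of the Col and C24 shares thus turned between the wild-type replicates, and the clf difference of 63.9% against 56.9% has no replicate to set beside it.

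The spread between wild-type replicates was wider than the differences among the clf lists. Marked genes shared by clf Col and clf C24 were 73.6% of those marked in either (84.9% of Col genes and 84.7% of C24 genes), and each parent shared more with F1, 83.3% for Col (93.5% of Col genes and 88.4% of F1 genes) and 81.6% for C24 (92.3% and 87.6%). Both wild-type replicates of a genotype shared 28.3% in Col, 38% in C24 and 46.8% in F1, less than the first replicates of different genotypes did (62.2% to 76.3%). Replicates 1 and 2 differ in depth as well, with 8.27 M against 1.11 M tags in peaks in Col, 5.24 M against 0.841 M in C24 and 6.91 M against 1.89 M in F1. Yet the deeper replicate 1 also lacked marks of replicate 2. It held 75.2% of the replicate 2 genes in Col, 58.8% in C24 and 82.9% in F1, while replicate 2 held 31.2%, 51.7% and 51.8% of the replicate 1 genes. No list had a peak wider than 9312 bp, and whether wider domains were left out, as 0 bp, was not tested. A gene marked in 1 clf list and not in another is therefore a difference between 2 libraries.

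**Figure D2:**
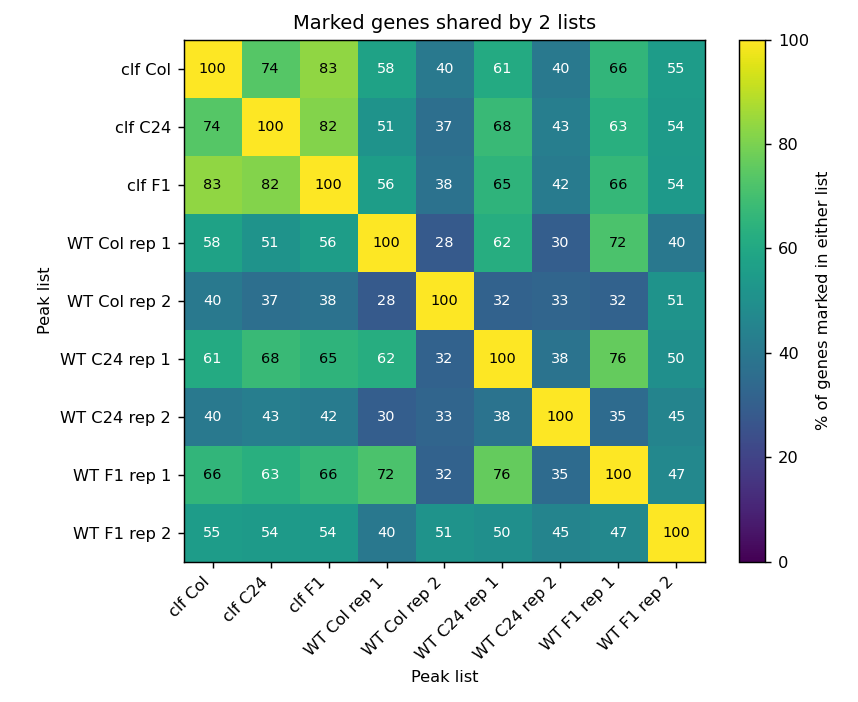
Marked genes shared by each pair of the 9 peak lists, as a percentage of the genes marked in either list (colour and printed value, both axes list the libraries). The clf lists share 73.6% to 83.3% with one another, and the 2 wild-type replicates of a genotype (WT, rep 1 and rep 2) 28.3% to 46.8%.

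Wild-type lists nevertheless carried marks on the same side more often than on the other. Among the 868 genes marked in clf Col and not clf C24, wild-type replicate 1 had 386 marked in Col and not C24 and 54 the other way round, and replicate 2 had 153 and 93. Over all genes replicate 1 had 1366 marked in Col and not C24 and 1476 the other way round, and replicate 2 had 556 and 3458. For the 885 genes marked in clf C24 and not clf Col the counts were 45 and 318 in replicate 1 and 10 and 255 in replicate 2. Both wild-type Col lists and neither C24 list marked 81 of the 868 genes, and both C24 lists and neither Col list marked 11. Among the 885 genes, 111 were marked in both wild-type C24 lists and neither Col list, and 1 the other way round. The 4828 genes marked in all 3 clf lists leaned to C24 too. Replicate 1 had 117 of them marked in Col and not C24 and 662 the other way round, and replicate 2 had 329 and 1202. Both C24 lists and neither Col list marked 218 of them, and 4 were the other way round. The direction of the lean among the 885 genes is therefore not particular to them. Its degree in replicate 2 was greater among the 885, with 10 and 255 beside 329 and 1202 of the 4828. No wild-type list marked 107 of the 868 genes (12.3%), 180 of the 885 (20.3%) and 59 of the 202 F1-only genes (29.2%), against 129 of the 4828 shared genes (2.67%).

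Marked genes were expressed at low levels in all 3 mutants, whichever genotype carried the mark. Genes marked in all 3 had median levels of 0.0567 RPKM in Col, 0.0867 in C24 and 0.0733 in F1, against 3.38, 3.86 and 3.21 RPKM for genes marked in none. Levels of at least 1 RPKM were reached by 26.4%, 29.1% and 27.1% of genes marked in all 3 and by 59.5%, 60.4% and 59.4% of unmarked genes. Genes marked in Col alone had medians of 0.0467 RPKM in Col, where they were marked, and 0.03 RPKM in C24, where they were not. Genes marked in C24 alone had 0.0833 RPKM in Col and 0.117 in C24, and F1-only genes 0.322, 0.68 and 0.418 RPKM in Col, C24 and F1. In each class of marked genes 21% to 31.6% were listed at 0 in all 9 libraries, a range that includes the 22.6% of genes marked in none.

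mRNA of clf C24 was then compared with clf Col, to ask whether genes with the mark in only 1 parent had less mRNA in that parent. A gene entered the test when 3 or more of the 9 libraries reached 1 RPKM (17819 genes), which 244 of the 868 genes marked in Col and not C24 did and 308 of the 885 marked in C24 and not Col. Over all tested genes 44.5% were called, 31.8% higher in C24 and 12.7% lower by limma (Benjamini-Hochberg adjusted p below 0.05), and the median log2 difference was 0.127, so each share below is set beside these. Genes marked in Col and not C24 were called higher in C24 in 109 cases (44.7% of those tested) and lower in 48 (19.7%). Genes marked in C24 and not Col were called higher in C24 in 91 cases (29.5%) and lower in 94 (30.5%).

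Most of the genes marked in 1 parent were thus not tested, and the tested ones included both directions. The share lower in C24 among genes marked in C24 was 30.5% against 12.7% over all tested genes, and their share higher was near that of all tested genes. For genes marked in Col both shares exceeded those of all tested genes. Over all members, tested or not, the order was the other way for Col, with 12.6% called higher and 5.53% lower of the 868 against 17.2% and 6.72% of all placed genes, and for the 885 the shares were 10.3% and 10.6%. A mostly silent gene can pass the filter through the genotype where it is high and then has to differ, so the shares among tested members are a description and not support for a difference of these genes from others. After quantile normalization, which removes the shift of the median, all tested genes split into 21.5% higher and 20.3% lower, genes marked in Col and not C24 into 36.9% and 24.2%, and genes marked in C24 and not Col into 21.8% and 36.7%. Genes marked in all 3, which do not differ in the mark by the rule, were also called more often than all tested genes, with 37% higher and 21.9% lower.

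Differences of at least 2-fold are given with the same limit, since the filter itself favours them among mostly silent genes. Of tested genes marked in Col and not C24, 42 (17.2%) were called and at least 2-fold higher in C24 and 23 (9.43%) at least 2-fold lower, against 4.32% and 2.77% over all tested genes. Of those marked in C24 and not Col, 24 (7.79%) were at least 2-fold higher and 35 (11.4%) at least 2-fold lower. For genes marked in all 3 the shares were 13.4% and 5.62%. Fold changes are on the log2(RPKM + 1) scale and understate those of genes near or under 1 RPKM.

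**Figure D3:**
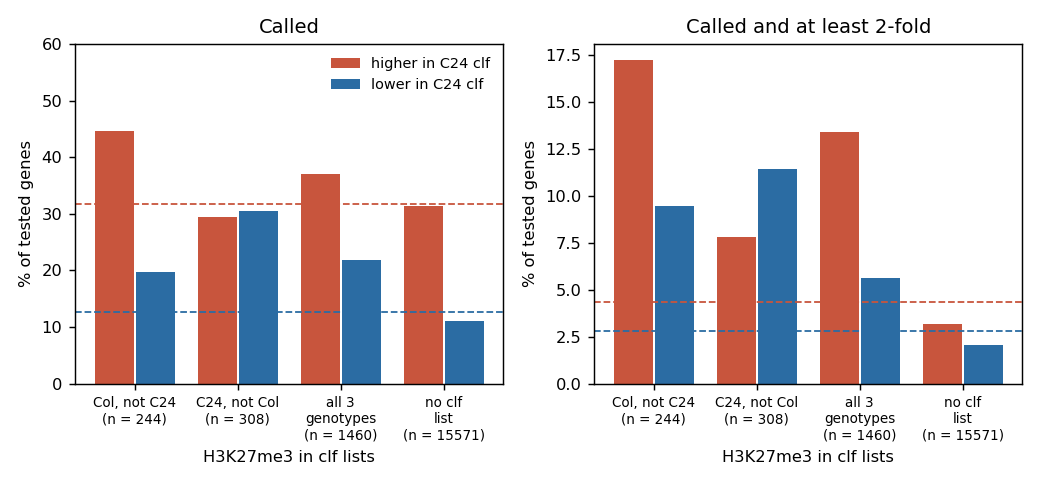
Percentage of tested genes (vertical axes) called higher or lower in clf C24 than in clf Col, by where the clf lists mark them (horizontal axes, with the number tested), for all calls and for calls of at least 2-fold. Dashed lines give the percentages over all 17819 tested genes, 31.8% and 12.7% on the left and 4.32% and 2.77% on the right.

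FLC (AT5G10140), the MADS-box repressor of flowering and a well known Polycomb target, was marked in clf Col only. A peak at chr5:3177114-3179772 (TAIR10) with 811 tags and a fold of 4.3 covered 2335 bp of the gene in Col, and 0 bp were covered in C24 and F1. FLC mRNA stood at 10.37, 11.33 and 10.08 RPKM in Col, where the gene was marked. It stood at 130.98, 143.54 and 145.72 RPKM in C24 and at 107.53, 96.58 and 97.09 RPKM in F1. The 3 groups did not overlap, with Col far below and F1 between C24 and Col but nearer C24. C24 exceeded Col by 3.61 on the log2 scale (SE 0.0736, limma adjusted p 6.8e-12) and F1 exceeded Col by 3.13 (SE 0.0736, adjusted p 2.8e-10). In whole shoots a mark or transcript in fewer cells and a lower level per cell cannot be told apart. The wild-type lists did not repeat the clf pattern, since 0 and 3361 bp were covered in Col, 2492 and 0 bp in C24 and 1022 and 0 bp in F1 (replicates 1 and 2). FLC is unmarked in all 3 when 50% of the gene body has to be covered.

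**Figure D4:**
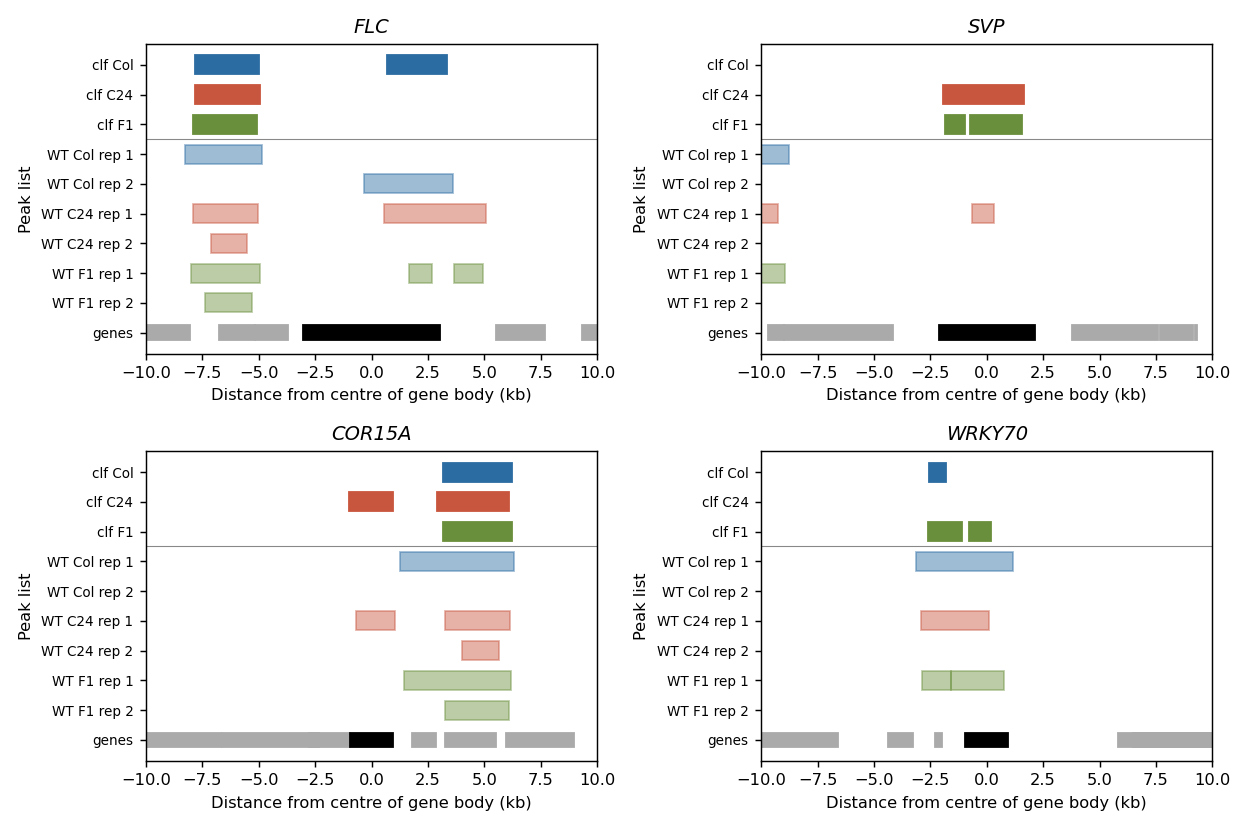
H3K27me3 peaks of the 9 lists within 10 kb of the centre of FLC, SVP, COR15A and WRKY70 (horizontal axes, distance in kb along increasing coordinates). Each line is a list, clf lists above the thin rule and wild-type (WT) lists below, with gene bodies at the bottom and the named gene in black. FLC has a clf peak in Col only, SVP in C24 and F1, COR15A in C24 only and WRKY70 in F1 only.

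SVP (AT2G22540), a MADS-box repressor of flowering that acts together with FLC, had the opposite pattern. Peaks covered 0 bp in clf Col, 3612 bp in clf C24 (chr2:9579813-9583424, 1076 tags, fold 4.99) and 3173 bp in clf F1. Its mRNA was at 48.69, 50.69 and 48.94 RPKM in Col, at 23.27, 27.35 and 24.64 RPKM in C24 and at 27.88, 30.63 and 28.62 RPKM in F1. Both genotypes with the mark lay below all Col libraries. C24 was lower than Col by 0.95 (log2 difference -0.95, SE 0.0735, limma adjusted p 1.1e-06) and F1 lower than Col (-0.75, adjusted p 4.6e-05). F1 exceeded C24 by 0.21 (adjusted p 0.0418), a call that ended without C24 replicate 1 (adjusted p 0.148), C24 replicate 3 (0.112), Col replicate 1 (0.0586), Col replicate 3 (0.0528), F1 replicate 2 (0.149) or F1 replicate 3 (0.0793) and without the filter on low values (0.0629). In wild type only C24 replicate 1 marked SVP, with 988 bp.

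Of 26 flowering time genes 20 were marked in at least 1 clf genotype, 16 of them in all 3, and besides FLC and SVP the exceptions were MAF4 and TEM1. MAF4 (AT5G65070), an FLC relative, had 1204 bp covered in Col, 0 in C24 and 922 bp in F1. Its mRNA was 4.52 ± 0.538 RPKM in Col (SD, n = 3), 8.22 ± 0.273 in C24 and 6.99 ± 0.927 in F1. C24 was higher than Col by 0.75 (limma adjusted p 1.3e-04) and so was F1 by 0.53 (adjusted p 0.00585), although F1 carried the mark as Col did. TEM1 (AT1G25560), a repressor of FT, was marked in C24 and F1 and showed 27.9 ± 4.09 RPKM in Col, 22.2 ± 4.42 in C24 and 21.6 ± 4.27 in F1. Neither difference from Col passed (log2 difference -0.33 with adjusted p 0.128 and -0.37 with adjusted p 0.19), while both passed with the replicate number as a block (adjusted p 0.00263 and 0.00418).

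Of the 18 flowering time genes tested, 5 were called higher and 6 lower in C24 than in Col, with a median of -0.25, beside 31.8% higher and 12.7% lower over all tested genes, against which the counts of the other lists below are to be read too. After quantile normalization it was 5 higher and 8 lower, beside 21.5% and 20.3%. Among those marked in all 3, SOC1 (AT2G45660), a floral integrator that FLC and SVP repress, showed 40.3 ± 2.4 RPKM in Col, 9.28 ± 1.07 in C24 and 7.8 ± 0.755 in F1. SOC1 was lower in C24 (-2.01, limma adjusted p 1.4e-08) and in F1 (-2.23, adjusted p 4.4e-08) than in Col. FT (AT1G65480), the mobile flowering signal, had 4.57 ± 1.17, 2.29 ± 0.176 and 1.4 ± 0.878 RPKM and was lower than in Col in F1 (-1.26, adjusted p 0.00237) and in C24 (-0.74, adjusted p 0.0145). The call in C24 ended without Col replicate 1 (adjusted p 0.06) and without the filter on low values (0.0917).

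Floral organ MADS-box genes did not differ in class by the 200 bp rule, though the length covered did differ in some. Of 14, 13 were marked in all 3 clf genotypes and CAL was marked in none. All 9 that were tested were nevertheless called higher in C24 than in Col, with a median of 1.26, and 9 were so after quantile normalization too. AP3, SEP1, SHP1 and STK were under 1 RPKM in every Col library and passed the filter through the other genotypes. The filter thus favoured the direction of their calls, and the count is a description only. SEP3 (AT1G24260), a cofactor of floral organ identity, showed 52.1 ± 8.08 RPKM in Col, 260 ± 22.7 in C24 and 123 ± 12.4 in F1, and 2588, 1984 and 2588 bp covered. AG (AT4G18960), the stamen and carpel identity gene, was covered over 5554 bp in Col, 1161 bp in C24 and 2135 bp in F1. Its mRNA was 24.4 ± 2.46, 40.6 ± 2.31 and 34.6 ± 1.76 RPKM, higher in C24 than in Col by 0.72 (limma adjusted p 3.2e-05). Over all genes marked in all 3, coverage was at least 2-fold longer in Col than in C24 in 112 cases and at least 2-fold longer in C24 in 50, and it was equal to the base in 1849.

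Among 18 meristem genes of the KNOX, WOX and CUC families, 15 were marked in all 3, and the other 3 were WOX genes. WOX12 (AT5G17810), known for its part in founding new roots, was covered over 2412 bp in clf Col and 0 bp in C24 and F1. The clf Col peak had a score of 61.58, near the lower limit of 50. In wild type only C24 replicate 2 marked WOX12, with 750 bp, and neither Col list did. WOX12 mRNA was at 0.00, 0.10 and 0.00 RPKM in Col, at 2.88, 0.65 and 1.29 RPKM in C24 and at 0.20, 0.09 and 0.35 RPKM in F1. All C24 libraries lay above all others, but WOX12 fell below the filter and was not tested. WOX2 (AT5G59340) and WOX8 (AT5G45980), which pattern the embryo, were marked in C24 and F1 and stayed at or under 0.45 RPKM in every library, with WOX8 listed at 0 throughout. STM (AT1G62360), the shoot meristem KNOX gene, was marked in all 3 and was higher in C24 (6.37 ± 0.513 RPKM) than in Col (2.46 ± 0.286 RPKM), by 1.09 with a limma adjusted p of 4.8e-06.

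Seed genes were marked alike in the 3 mutants, with 16 of 17 marked in all 3 and OLEO2 in none. Of 6 tested, 5 were called higher in C24 than in Col and 1 lower, the dormancy gene DOG1, beside 31.8% and 12.7% over all tested genes. OLEO1, OLEO2 and EM6 were under 1 RPKM in every Col library and passed the filter through the other genotypes, which favoured the direction of their calls. The libraries of a group were uneven, with list sums of 86 to 231 RPKM in C24 and 6.14 to 71.3 RPKM in F1, and C24 replicate 1 stood highest. The storage protein gene CRU3 had 121.67, 44.66 and 49.78 RPKM in C24 and at most 1.35 RPKM in any Col library. Auxin transport and synthesis genes were marked in all 3 in 13 of 19 cases. PIN4 (AT2G01420), an auxin efflux carrier, was marked in C24 and F1 and showed 46.1 ± 1.48 RPKM in Col, 55.5 ± 4 in C24 and 55.9 ± 2 in F1. It was thus called higher where it was marked, by 0.26 in C24 (limma adjusted p 0.00946, and 0.0994 after quantile normalization) and by 0.27 in F1 (adjusted p 0.0236). The F1 call ended without Col replicate 1 (adjusted p 0.0886), Col replicate 3 (0.0837), F1 replicate 2 (0.0706) or F1 replicate 3 (0.0882). PIN8 (AT5G15100), a pollen auxin carrier, was marked in Col and F1 and in all 6 wild-type lists, and averaged at most 0.267 RPKM in any genotype.

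Of 19 genes of the Polycomb machinery and of H3K27 demethylation 15 were marked in none, beside 79.1% of all genes, with MEA, FIS2 and EMF1 marked in all 3. VRN1 (AT3G18990), a DNA-binding protein of vernalization, was marked in C24 (684 bp) and F1 (515 bp) and not in Col. Its mRNA was 15.7 ± 1.33 RPKM in Col, 19.7 ± 1.33 in C24 and 16.7 ± 0.89 in F1, higher in C24 by 0.31 (limma adjusted p 0.00971, and 0.0861 after quantile normalization). In this list 10 of 18 tested genes were called higher in C24 and 1 lower, beside 31.8% and 12.7% over all tested genes. Among the higher ones MEA reached 1 RPKM in C24 libraries only, so the filter favoured that direction for it. After quantile normalization 4 of the 18 were higher and 2 lower, beside 21.5% and 20.3%. SWN (AT4G02020), the methyltransferase closest to CLF, rose from 14 ± 0.312 RPKM in Col to 26.8 ± 0.645 in C24, by 0.89 with an adjusted p of 1.2e-06.

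Of 9 type I MADS-box genes 2 were marked in all 3, and AGL61 (AT2G24840), a gene of the central cell, was marked in C24 (884 bp) and F1 (947 bp). It was listed at 0 in all 9 libraries. Among the 7 glucosinolate loci known to vary between accessions, 6 were marked in all 3 clf genotypes and AOP1 in none, so the mark did not differ there by the rule. Of the 6 tested, 4 were called higher in C24 than in Col and 1 lower. The 5 housekeeping genes were unmarked in the clf lists, and UBQ10 and GAPC1 were the ones called, lower and higher in C24.

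Beyond these lists, genes marked in Col and not C24 with the largest differences included some with much more mRNA in C24. SADHU10-1 (AT3G58865), a retroelement annotated as a pseudogene, had 945, 164 and 945 bp covered in Col, C24 and F1. A C24 peak of 6367 bp thus reached into the gene too, and its class rests on the 200 bp limit. SADHU10-1 mRNA was 2.04 ± 0.266, 16.4 ± 1.22 and 11.1 ± 1.58 RPKM, higher in C24 than in Col by 2.52 (limma adjusted p 6.9e-09). IGMT2 (AT1G21120), a methyltransferase of indole glucosinolates, was covered over 786 bp in Col and 1450 bp in F1. It showed 0.24 ± 0.185 RPKM in Col, 5.39 ± 1.54 in C24 and 3.47 ± 0.303 in F1, and was higher than Col in F1 too, by 1.86 (adjusted p 3e-05). MLS (AT5G03860), malate synthase of the glyoxylate cycle, was marked in Col only and had 0.347 ± 0.0945, 5.16 ± 1.72 and 1.04 ± 0.476 RPKM, higher in C24 by 2.16 (adjusted p 6.1e-06). AtMT4b (AT2G23240), a metallothionein gene, was marked in Col only and at 0 in every Col library as listed, against 9.4, 3.24 and 7.63 RPKM in C24. IGMT2, MLS and AtMT4b were under 1 RPKM in every Col library and passed the filter through the other genotypes. The filter thus favoured the direction of their calls. Wild-type replicate 1 marked IGMT2 in all 3 genotypes.

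Others marked in Col and not C24 had more mRNA in Col, the genotype with the mark. GL2 (AT1G79840), a homeobox gene of trichome and root hair fate, had 3798 bp covered in clf Col by a peak of 6635 bp with a fold of 3.45, and 0 bp in C24 and F1. GL2 mRNA was at 5.53, 5.59 and 6.77 RPKM in Col, at 0.97, 0.80 and 0.89 RPKM in C24 and at 2.64, 2.79 and 2.85 RPKM in F1. The marked genotype was the highest, and the groups did not overlap. C24 was lower than Col by 1.88 (log2 difference -1.88, SE 0.0975, limma adjusted p 3.2e-08). GL2 was under 1 RPKM in every C24 library and passed the filter through the other genotypes, which favoured that direction. All 6 wild-type lists marked GL2, over 1109 to 3906 bp.

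HR4 (AT3G50480), a relative of the powdery mildew resistance gene RPW8, had 943 bp covered in Col and none in C24 and F1. Its mRNA was at 12.88, 17.94 and 16.78 RPKM in Col, at 0.12, 0.10 and 0.20 RPKM in C24 and at 5.27, 6.41 and 4.65 RPKM in F1. All C24 libraries lay far below the others, and F1 lay between the parents. In wild type Col replicate 1 alone marked HR4, over 1250 bp. Reads were placed on a Col-type reference, so a C24 sequence difference and a lower level or mark cannot be told apart here. The log2 difference of C24 from Col was -3.88 (SE 0.131, limma adjusted p 6.7e-10) and that of F1 from Col -1.38 (adjusted p 3.4e-05). ACA2 (AT2G28210), an alpha carbonic anhydrase gene, went the same way, with 2.28 ± 0.614, 0.05 ± 0.0458 and 0.727 ± 0.388 RPKM in Col, C24 and F1. Both wild-type C24 lists marked ACA2 (1073 and 650 bp), and the Col lists covered 2747 and 0 bp. HR4 and ACA2 were under 1 RPKM in every C24 library, so the filter favoured the direction of their calls. TRM9 (AT1G31600), a tRNA methyltransferase, and RABA1g (AT3G15060), a Rab GTPase, were lower in C24 as well (-1.47 and -1.11), but their marks were 218 and 217 bp long in Col, just over the threshold, and RABA1g had 199 bp in C24.

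Among genes marked in C24 and not Col, several had less mRNA in C24. COR15A (AT2G42540), a chloroplast protein of cold acclimation, had a peak in clf C24 only (chr2:17710373-17712324, 591 tags, fold 3.4) that covered 1884 bp. Its mRNA was at 160.6, 180.87 and 162.08 RPKM in Col, at 43.21, 49.46 and 42.85 RPKM in C24 and at 90.66, 97.59 and 100.94 RPKM in F1. The marked genotype was the lowest and F1, unmarked, lay between without overlap. C24 was lower than Col by 1.87 (log2 difference -1.87, SE 0.078, limma adjusted p 4.4e-09) and F1 by 0.79 (-0.79, adjusted p 4.6e-05). Wild-type C24 replicate 1 was the 1 wild-type list that marked COR15A.

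AGL87 (AT1G22590), a type I MADS-box gene, was covered over 710 bp in C24 and 891 bp in F1 and in no wild-type list. It had 25.11, 18.04 and 22.16 RPKM in the Col libraries, 1.83, 2.69 and 2.31 RPKM in those of C24, and 14.18, 12.64 and 12.24 RPKM in those of F1. F1 lay between the parents although it was marked as C24 was. The log2 differences were -2.79 for C24 against Col (SE 0.127, limma adjusted p 9.6e-09) and -0.69 for F1 against Col (adjusted p 0.00401). GLR2.7 (AT2G29120), a glutamate receptor-like channel gene, had 4028 bp covered in C24 and 3889 bp in F1. Its mRNA was at 2.64, 2.37 and 2.18 RPKM in Col, at 0.01, 0.02 and 0.00 RPKM in C24 and at 1.22, 1.01 and 1.05 RPKM in F1, again with the marked F1 between the parents. GLR2.7 was under 1 RPKM in every C24 library and passed the filter through the other genotypes.

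PERK15 (AT1G52290), a receptor kinase gene, and OPT7 (AT4G10770), an oligopeptide transporter gene, were marked in C24 only over 498 and 449 bp. The wild-type lists did not repeat this. PERK15 was marked there in replicate 1 of Col (1772 bp) and of F1 (1351 bp) and in neither C24 list, and OPT7 in no list. PERK15 had 8.87 ± 2.01, 1.36 ± 0.337 and 4.83 ± 0.728 RPKM in Col, C24 and F1, and OPT7 17.2 ± 2.46, 4.2 ± 0.691 and 11.4 ± 1.64 RPKM. MBP1 (AT1G52040) and MBP2 (AT1G52030), neighbouring genes for myrosinase-binding proteins, were both marked in C24 and F1. MBP1 was lower in C24 than in Col (1.27 against 7.07 RPKM, -1.81, limma adjusted p 2.6e-06) and MBP2 higher (7.74 against 4.33 RPKM, 0.71, adjusted p 2.9e-04). As near copies they may share reads, so their separate levels are uncertain.

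Further genes marked in C24 and not Col had more mRNA in C24. SADHU3-1 (AT3G44042), another retroelement annotated as a pseudogene, had 830 bp covered in C24 and in F1. No Col library listed it above 0, while it had 19.77, 16.16 and 14.85 RPKM in C24 and 9.42, 7.14 and 8.07 RPKM in F1, so that mRNA and mark were found in the same genotypes. Reads were placed on the Col sequence, and repeated copies of such elements may share reads. CYP709B2 (AT2G46950), a cytochrome P450 gene, had 734 bp covered in C24 and 0.07 ± 0.0361, 3.08 ± 0.499 and 0.57 ± 0.111 RPKM in Col, C24 and F1. GLYI4 (AT1G15380), a glyoxalase gene, had 589 bp covered in C24 and 1.13 ± 0.0436, 10.3 ± 5.43 and 2.48 ± 0.279 RPKM. GLP6 (AT5G39100), a germin-like gene marked in C24 and F1, had 0.0233 ± 0.0404, 1.91 ± 0.3 and 0.303 ± 0.11 RPKM. Wild-type replicate 1 marked GLYI4 and GLP6 in all 3 genotypes, Col included. LEA4-5 (AT5G06760), a late embryogenesis protein gene, was uneven in C24 (8.89, 2.14 and 2.68 RPKM), and its call against Col (1.63, limma adjusted p 0.0066) ended without the filter on low values (0.0682). SADHU3-1, CYP709B2, GLP6 and LEA4-5 were under 1 RPKM in every Col library, so the filter favoured the direction of their calls.

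**Figure D5:**
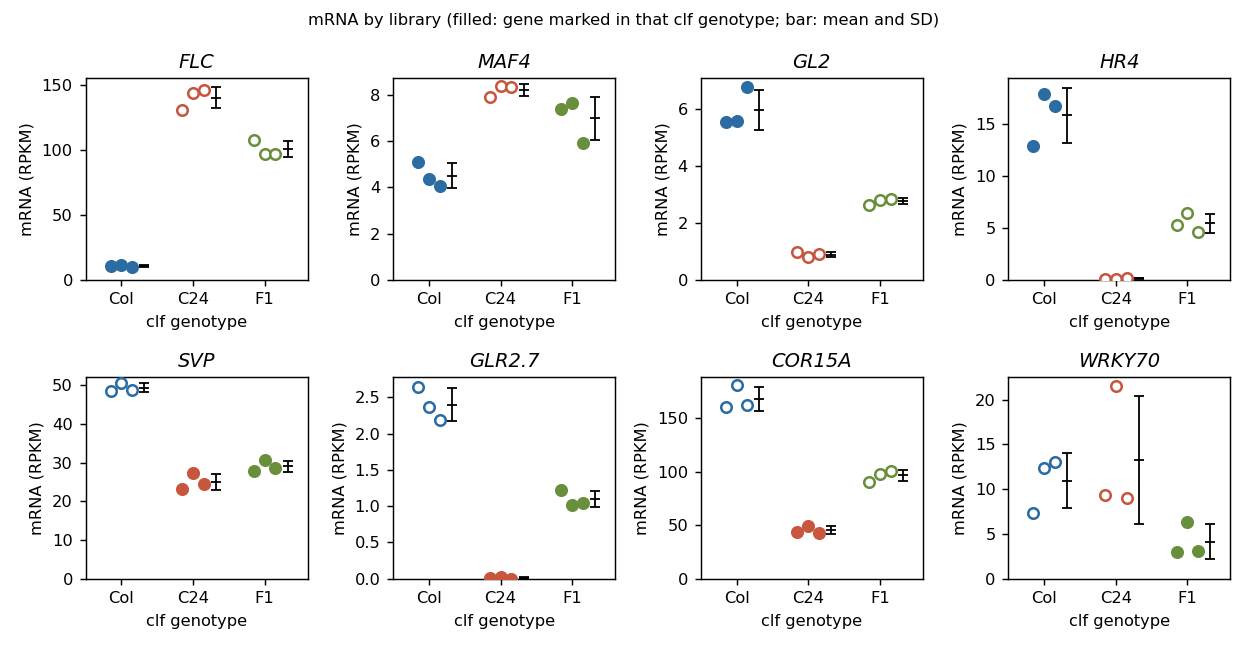
mRNA level in RPKM (vertical axes) of 8 genes in the 3 libraries of each clf genotype (horizontal axes). Filled points mark genotypes whose clf list marks the gene, open points those that do not, and bars give the mean and SD. FLC and SVP are lowest where marked, GL2 and HR4 are highest where marked, and F1 lies between the parents in all but WRKY70.

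Genes were also taken for the length of their one-sided coverage alone, and FLC and GL2 were among both these and the genes of largest mRNA difference. Of the 30 genes taken for coverage, 5 from each of the 6 classes, 13 entered the mRNA test and the others stayed below its filter. ABCA5 (AT3G47760) and ABCA6 (AT3G47770), neighbouring ABC transporter genes, were covered over 2212 and 3348 bp in C24 only and reached at most 0.02 RPKM in any library. BAT1 (AT4G31910), an acyltransferase of brassinosteroid metabolism, was covered over 3036 bp in clf C24 only, yet all 6 wild-type lists marked it over 2224 to 3036 bp. Its mRNA was 2.89 ± 0.335 RPKM in the Col group and 6.52 ± 1.34 in C24, higher in C24, the marked genotype, by 0.94 (limma adjusted p 9e-05). BRC1 (AT3G18550), a TCP repressor of branching, had 2527 bp covered in both Col and F1 and was higher in C24 (3.24 ± 0.786 RPKM) than in Col (1.52 ± 0.225 RPKM), by 0.74 with an adjusted p of 0.00102. CYP708A3 (AT1G78490), a P450 gene covered over 2618 bp in Col only, was higher in C24 by 0.56 (adjusted p 7.5e-04). Its clf Col peak had a score of 50.04, the lowest of that list. In wild type both C24 lists marked CYP708A3 (2891 and 1038 bp), while the Col lists covered 2985 and 0 bp. BRC1 was marked in replicate 2 of all 3 wild-type genotypes, C24 included. XSP1 (AT4G00230), a xylem serine peptidase gene covered in C24 (2587 bp) and F1 (2547 bp), was lower in C24 (-0.63, adjusted p 9.6e-05).

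Further genes of long coverage gave the same mixture. 2A6 (AT1G03410), covered over 2755 bp in C24 only, had less mRNA there (0.52 ± 0.262 RPKM) than in Col (1.77 ± 0.166 RPKM), with a log2 difference of -0.88 and a limma adjusted p of 2e-04. CYCB1;5 (AT1G34460), a cyclin gene covered over 3656 bp in Col and 3083 bp in F1, showed 0.347 ± 0.162 RPKM in Col, 1.84 ± 0.525 in C24 and 0.977 ± 0.114 in F1, and was higher in C24 than in Col by 1.07 (adjusted p 1.3e-04). Both wild-type C24 lists marked CYCB1;5 (6892 and 1419 bp), and the wild-type Col lists covered 0 and 2431 bp. 2A6 in C24 and CYCB1;5 in Col were under 1 RPKM in every library, so the filter favoured the direction of both calls. CAX6, VGD1, ABCG17, RLP11 and PP2-A3 stayed under 1 RPKM in every library and were not tested. When peaks needed a score of at least 100, 32 of the 58 named marked genes changed class, among them COR15A, AGL87, WOX12, MLS, OPT7, PERK15, MBP1 and WRKY70.

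F1 was compared with each parent in the same way, over genes whose mark differed between F1 and that parent. Against Col, 4.98% of all tested genes were called higher in F1 and 7.03% lower, 2140 in all (12%), and 3551 were called with the replicate number as a block. Of 374 genes marked in Col and not F1, 115 were tested, with 19 called higher in F1 (16.5%) and 21 lower (18.3%). Of 706 genes marked in F1 and not Col, 267 were tested, with 18 called higher (6.74%) and 42 lower (15.7%). Genes unmarked in F1 were thus called in both directions about as often, and among genes marked in F1 lower calls were the more frequent. Lower calls were also the more frequent over all tested genes, but not after quantile normalization, which gave 6.58% higher and 6.58% lower over all tested genes, 7.49% and 14.6% of genes marked in F1 and not Col, and 17.4% and 15.7% of genes marked in Col and not F1. Over all members, tested or not, 2.55% of the 706 were called higher and 5.95% lower, and 5.08% and 5.61% of the 374. For all placed genes it was 2.7% and 3.8%. Of tested genes marked in all 3, 11.8% were called higher and 10.1% lower. The limit set by the filter in the comparison of C24 with Col holds here too, so the shares among tested members are a description only. Leaving out Col replicate 1 gave 1354 calls in all, 13 in place of the 21 and 10 in place of the 18, leaving out Col replicate 3 gave 1337 calls in all, and leaving out F1 replicate 3 gave 11 in place of the 18.

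Against C24, 6.66% of all tested genes were called higher in F1 and 35.8% lower (42.4% in all), around a median of -0.184. Of 442 genes marked in C24 and not F1, 152 were tested, with 34 called higher in F1 (22.4%) and 40 lower (26.3%). Of 757 genes marked in F1 and not C24, 240 were tested, with 21 called higher (8.75%) and 97 lower (40.4%). Over all members, tested or not, 7.69% of the 442 were called higher and 9.05% lower, and 2.77% and 12.8% of the 757. For all placed genes it was 3.44% and 19.4%. Of tested genes marked in all 3, 15.1% were called higher and 32.4% lower. The same limit of the filter applies. After quantile normalization all tested genes split into 13% higher and 13.5% lower, genes marked in C24 and not F1 into 31.6% and 13.8%, and genes marked in F1 and not C24 into 13.3% and 21.2%. The total of 7558 calls fell to 4711 under that normalization, to 4861 without C24 replicate 3 and to 5008 without F1 replicate 3. Both F1 comparisons use the F1 libraries, and each shares its parent with the comparison of C24 with Col, so the 3 sets of counts are not independent.

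mRNA levels outside both parents were looked for where the mark of F1 was. Among the 202 F1-only genes and the 61 genes marked in both parents and not F1, 111 were tested, and 1, WRKY70, was called against both parents in the same direction, against 186 of all 17819 tested genes. WRKY70 (AT3G56400), a transcription factor of salicylic acid defence, had a peak in clf F1 (chr3:20908873-20909875, 123 tags, fold 3.64) that covered 1003 bp. Its mRNA was at 7.39, 12.36 and 13.08 RPKM in Col, at 9.32, 21.50 and 8.99 RPKM in C24 and at 2.99, 6.39 and 3.10 RPKM in F1. All F1 libraries lay below all parental ones, and the parents overlapped. F1 was lower than C24 (-1.42, SE 0.322, limma adjusted p 0.00574) and lower than Col (-1.24, adjusted p 0.0278). The call against Col ended without Col replicate 2 (adjusted p 0.0816), Col replicate 3 (0.111), F1 replicate 1 (0.0751) or F1 replicate 3 (0.11) and after quantile normalization (0.0568). Without the filter on low values neither call held (0.197 against Col and 0.0599 against C24). In wild type WRKY70 was marked in replicate 1 of all 3 genotypes and in no replicate 2.

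Of the 5 F1-only genes with the longest coverage, 4 were nearly silent. GRP17 (AT5G07530), a pollen coat protein gene, FUT10 (AT2G15350), a fucosyltransferase gene, PER4 (AT1G14540), a peroxidase gene, and IREG2 (AT5G03570), a metal transporter gene, reached at most 0.1 RPKM in any library. USPL1 (AT1G49320), a gene for a BURP-domain protein, was covered over 1580 bp in clf F1 and marked in all 6 wild-type lists. It had 6.45 ± 0.434, 5.17 ± 0.196 and 7.12 ± 1.18 RPKM in Col, C24 and F1 and was higher in F1 than in C24 by 0.39 (limma adjusted p 0.0146, and 0.0516 without the filter).

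Of the genes marked in both parents and not F1, LEA14 (AT1G01470), a late embryogenesis protein gene, was the expressed one of the 5 with the longest coverage. Peaks covered 993 bp in Col and 1104 bp in C24 and 0 bp in F1. In wild type the F1 replicate 1 list alone marked LEA14, over 1001 bp. LEA14 mRNA was at 62.44, 62.15 and 60.60 RPKM in Col, at 31.85, 31.16 and 32.31 RPKM in C24 and at 41.28, 40.80 and 43.14 RPKM in F1. F1 thus lay between the parents, below Col (-0.55, limma adjusted p 8.7e-05) and above C24 (0.38, adjusted p 6.4e-04). EXT10, DD46, LON3 and TIP1;3, the other 4, were at or under 0.02 RPKM in every library.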

How the data were processed

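H3K27me3 ChIP-seq peak lists (9) and clf mRNA files (9) were used as deposited, 1 per library. TopHat, Bowtie and TAIR10 are named, with no version or role, in the submitters' processing notes. Not given in the sources used here are the peak caller, the input control, the counting program and the use of strand. The mRNA files hold RPKM per gene, computed by the authors. Per the file headers, each peak has a tag count and a fold enrichment. The column of the deposited lists whose name is lost holds values from 50 upward and was treated as a score.

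Gene bodies came from the RefSeq annotation of TAIR10.1 and peaks are in TAIR10, and the 2 could not be compared base by base. Of 33559 gene IDs, 32815 were placed once on chromosomes 1 to 5. IDs listed more than once (567 IDs, 1141 lines) were left out, which left 32992 genes with mRNA values. The 17819 genes that reached 1 RPKM in 3 or more of the 9 libraries were tested on log2(RPKM + 1) with limma 3.58.1 (R 4.3.3), trended empirical Bayes, on all 9 libraries in 1 fit. A gene was called at a Benjamini-Hochberg adjusted p below 0.05 over all tested genes. On simulated data for C24 against Col with 200 changed genes among 17819, the fit called 85.1% of genes set to 1.5-fold, 97% of those at 2-fold and 100% of those at 4-fold, with 15 false calls among 17619 unchanged genes. The simulated libraries were independent and had no shift of the median, unlike the real ones. The false calls therefore do not measure those of the real comparison. Peaks were joined to genes with Python 3.11.15, numpy 2.4.6 and pandas 2.3.3, and figures drawn with matplotlib 3.10.9.

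Depth of the mRNA libraries was estimated from genes under 400 bp whose values are multiples of 1 read, and for 67.2% to 76.8% of the low values the read number came out whole to within 4%, so the estimate is rough and no count test was run. Same-numbered mRNA libraries deviated together from their group means (correlations of 0.169 to 0.426 in all 9 pairs), so the numbers pair the samples, by the data and not by the labels. The reported calls are from the fit without this pairing, and calls with the replicate number as a block are given as an alternative. Reads were placed on a reference of the Col type, so that sequence differences of C24 and differences in level or mark cannot be told apart. Near copies and overlapping or antisense genes may share reads.

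Genes named were CLF, the 5 genes with a symbol of longest coverage in each class, the 5 highest and 5 lowest called and non-overlapping differences of C24 from Col in each direction of the mark, F1-specific genes called outside both parents, and list members marked in 1 or 2 genotypes. SOC1, FT, SEP3, AG, STM and SWN were picked from the lists after their values were seen. Some genes that the rule names are not reported here. The genes studied and the lists were chosen with earlier results of these data known. Alternatives were other coverage and score limits, equal peak numbers, another pseudocount and filter, quantile normalization, the replicate block and leaving out each library. No reference sequence was used.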

Additional observations from a re-analysis of the deposited data

Results flagged for a closer look

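Outside chromosomes 1 to 5, the clf F1 list held 19 peaks on the mitochondrial genome, more than either wild-type F1 list (9 and 15). The clf Col list had 18, between the wild-type Col lists (14 and 19), and the clf C24 list 24, against 14 and 24 in wild type. These peaks entered no comparison.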

How the results depend on the processing

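The number of genes in each class of marking stayed within 1.5 times of the reported value under every coverage and score limit tried, but membership turned over. Of 58 named marked genes, 32 changed class at a score of at least 100, 21 when 50% of the gene body had to be covered, 9 with equal peak numbers and 4 at 500 bp. Quantile normalization moved the total of F1 against C24 from 7558 to 4711 calls, genes marked in C24 and not F1 called lower from 40 to 21, and genes marked in F1 and not C24 from 21 to 32 higher and from 97 to 51 lower. Without the filter on low values, genes marked in Col and not C24 called lower in C24 went from 48 to 78. With the replicate block, F1 against Col gave 3551 calls in place of 2140. Calls among genes marked in all 3 in that comparison went from 172 to 272 higher and from 148 to 227 lower. With the block, calls were added for TEM1 against Col in C24 and F1, for USPL1 in C24 against Col (limma adjusted p 0.0228), for GLYI4 (0.0297), MLS (0.0309) and XSP1 (0.038) in F1 against Col and for LEA4-5 in F1 against C24 (0.0234), and no call of a named gene ended. Leaving out 1 library gave 1337 to 2292 calls for F1 against Col, 13 to 20 lower calls among genes marked in Col and not F1, 10 to 17 higher calls among genes marked in F1 and not Col, and 4861 to 8478 calls for F1 against C24. The cause of these shifts was not tested. The other 142 counts under other settings, and 128 with a library left out, stayed within 1.5 times of the reported count. Protein-coding genes alone were taken as an alternative after seeing the data. Each clf mark rests on 1 library, so depth and replicate error of a mark could not be separated.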
